A study of Mus musculus with 2 samples.

Results

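This report covers 10 genes of linked calcium and membrane biology in mouse splenic CD8+ T cells: the S100 genes S100a4, S100a6, S100a10, S100a11 and S100a13, the annexin genes Anxa1, Anxa2, Anxa5 and Anxa6, and Ahnak. A probe was taken as a member if it was no control spot and either array file gave it one of these gene names. The rule found 13 probes for the 10 genes, out of 41174 probes with 27780 gene names on the array. The study sorted CD8+CD122+ cells and CD8+CD122- cells from the spleens of C57BL/6 mice, and the series title calls the CD8+CD122+ cells regulatory T cells. CD122 is the beta chain shared by the IL-2 and IL-15 receptors, and it also marks memory CD8+ T cells. No treatment or mutant allele is named for either population, and the sources used here do not state the age, sex, number or pooling of the mice. Amplified mRNA was read on 2 Agilent arrays of the two-colour type, each with both populations. CD8+CD122+ carried Cy5 on array 1 and Cy3 on array 2. Nothing in the labels says whether the RNA of the arrays came from separate sorts, so the spread between them may be technical. The dyes changed with the array, so that spread also holds any effect of the dyes.

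S100 proteins are small proteins with EF-hand calcium sites that pair up and, on binding calcium, expose a surface for target proteins. Annexins bind acidic membrane phospholipids in the presence of calcium and take part in membrane repair, exocytosis and the link between membrane and actin. The families meet in defined complexes: S100A10, which is held in its active shape without calcium, joins annexin A2 in a heterotetramer that binds the giant scaffold protein AHNAK, while S100A11 binds the amino-terminal tail of annexin A1. Several of these genes are known to be more highly expressed in effector and memory T cells than in naive T cells.

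The promoter sequences of S100a4, S100a6 and Anxa2 are shown first, since each had a probe, chosen by the rule, past 2-fold on both arrays. That of Ahnak is added, since probes of it outside the rule were past 2-fold. Each is the 250 bases before the transcription start, on the + strand of GRCm38.p6 from RefSeq: S100a4 at chr3:90603520-90603769, S100a6 at chr3:90612644-90612893, Anxa2 at chr9:69453433-69453682 and Ahnak at chr19:8989034-8989283. Capitals mark matches, on either strand, to TGTGGT (a RUNX motif) or TGANTCA (an AP-1 motif), 2 factor families of T cells.
S100a4: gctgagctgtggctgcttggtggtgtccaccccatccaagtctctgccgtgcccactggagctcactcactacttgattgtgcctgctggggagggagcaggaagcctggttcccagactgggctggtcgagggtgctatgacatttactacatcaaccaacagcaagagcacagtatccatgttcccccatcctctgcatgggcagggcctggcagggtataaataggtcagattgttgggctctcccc
S100a6: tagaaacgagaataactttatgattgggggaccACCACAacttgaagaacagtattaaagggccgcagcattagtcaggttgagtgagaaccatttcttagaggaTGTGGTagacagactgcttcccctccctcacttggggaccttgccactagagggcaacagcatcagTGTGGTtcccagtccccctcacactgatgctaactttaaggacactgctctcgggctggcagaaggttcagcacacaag
Anxa2: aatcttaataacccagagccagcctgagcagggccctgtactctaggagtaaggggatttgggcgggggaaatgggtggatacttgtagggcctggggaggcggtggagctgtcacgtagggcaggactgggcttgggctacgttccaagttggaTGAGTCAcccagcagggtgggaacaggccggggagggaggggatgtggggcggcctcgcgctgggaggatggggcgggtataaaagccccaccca
Ahnak: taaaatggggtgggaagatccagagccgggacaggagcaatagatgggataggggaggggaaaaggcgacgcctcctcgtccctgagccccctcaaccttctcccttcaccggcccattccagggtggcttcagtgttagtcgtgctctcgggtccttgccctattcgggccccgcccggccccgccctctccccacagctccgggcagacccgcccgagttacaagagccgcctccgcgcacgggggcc
The S100a6 window held 3 matches to TGTGGT, which started 217, 145 and 79 bases before the start site, and the Anxa2 window held 1 match to TGANTCA, which started 95 bases before it. The S100a4 and Ahnak windows held neither motif. RefSeq windows matched 8 of the 10 members, all but S100a10 and Anxa6. Over 300 bases (250 before the start and 50 after it), TGTGGT was found in 1 of the 8 windows and in 16.8% of all 32851 windows. TGANTCA was found in 2 of the 8 windows, those of Anxa2 and S100a11, and in 7.81% of all windows. These matches are a description of the letters and say nothing about binding.

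Each array carried 43790 spots, of which 2256 were controls. The share of probes well above background was 76.4% for CD8+CD122+ and 69.5% for CD8+CD122- on array 1, and 80.2% and 83.4% on array 2. All 13 member probes were among the 30794 probes well above background in at least 1 population, the same one on both arrays, and were tested; none was saturated. Il2rb, which encodes CD122, had log2 ratios of CD8+CD122+ over CD8+CD122- of 2.60 on array 1 and 2.34 on array 2, in the direction of the sort. Only 2 arrays limit the precision of every value below. Intensities are given after background correction and loess normalisation within each array, so populations are compared within an array. In bulk RNA, more cells expressing a gene and more RNA per cell cannot be told apart.

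The genes divided by size. On both arrays, CD8+CD122+ exceeded CD8+CD122- by 2-fold or more for S100a6, S100a4 and 1 Anxa2 probe, and no member probe was at least 2-fold lower on both. S100a10, S100a11, Anxa1, 1 Anxa6 probe and the probe named Ahnak had mean log2 ratios within 0.06 of 0. The 3 of 13 probes that passed the 2-fold rule upward stand beside 78 of all 30794 probes tested, or 0.253%, and the 0 that passed it downward beside 25 probes, or 0.0812%. The log2 ratio was above 0 on both arrays for 8 member probes (27.8% of all probes). It was below 0 on both for 3 (25.6% of all probes). The other 2 had opposite signs, as had 14364 of all 30794 probes tested. Of the 8, 2 Anxa2 probes passed the filter only through CD8+CD122+, the population in which they were higher. With both populations required to be well above background, 6 were above 0 on both arrays. The median log2 ratio over the 13 member probes was 0.06, beside 0.00326 over all probes. Over all probes tested, the arrays agreed little in rank (Spearman correlation 0.11, Pearson correlation 0.38), which limits the sign counts and the small ratios.

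With 2 arrays and 1 residual degree of freedom, limma with Benjamini-Hochberg adjustment called no member and none of the 30794 probes, or 0%, and its smallest adjusted p over all probes was 0.146. With an intensity trend or robust variance, limma also called 0 probes. An unadjusted limma p under 0.05 was reached by 6 member probes with higher values in CD8+CD122+, where 2.62% of all probes reached it, and by 1 with a lower value, where 3.49% did. The 6 include both Anxa2 probes that passed the filter only through CD8+CD122+. No difference below therefore passed a test adjusted over the array, and the folds are sizes with their spread over 2 arrays.

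**Figure D1:**
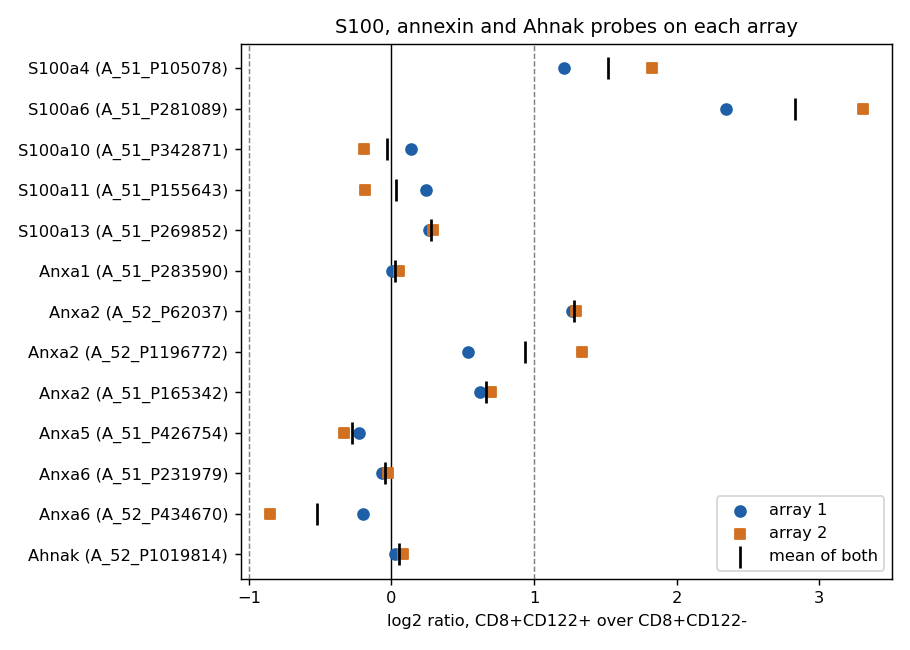
Log2 ratio of CD8+CD122+ over CD8+CD122- (x axis) for the 13 member probes (y axis) on array 1 (circles) and array 2 (squares), with the mean as a bar and dashed lines at 2-fold. S100a4, S100a6 and Anxa2 probe A_52_P62037 lie beyond 2-fold on both arrays, while S100a10 and S100a11 lie on opposite sides of 0.

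S100a6, or calcyclin, is a calcium-binding partner of CACYBP, SUGT1 and several annexins. Its probe A_51_P281089 had a normalised intensity of 584 in CD8+CD122+ and 115 in CD8+CD122- on array 1, and of 1194 and 121 on array 2. On each array CD8+CD122+ lay far above CD8+CD122-. The log2 ratio was 2.35 on array 1 and 3.31 on array 2, with a mean of 2.83 ± 0.68 (SD, n = 2 arrays), or 7.10-fold (limma SE 0.29, adjusted p = 0.525). Of all probes tested, 14 had a higher mean ratio.

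S100a4, which binds non-muscle myosin IIA and is known for its part in cell motility, was read by probe A_51_P105078. Its normalised intensity was 471 in CD8+CD122+ and 204 in CD8+CD122- on array 1, and 1233 and 348 on array 2. CD8+CD122+ was the higher population on each array. The log2 ratio was 1.21 and 1.83 on arrays 1 and 2, with a mean of 1.52 ± 0.44 (SD, n = 2), or 2.86-fold (limma SE 0.19, adjusted p = 0.582). Of all probes tested, 66 had a higher mean ratio. A further probe for an S100a4 transcript, A_52_P45937, lay 2054 bases before the first and did not show the difference: its intensity was 77.3 and 88.7 on array 1 and 133 and 117 on array 2 (CD8+CD122+ first), and its log2 ratios were -0.20 and 0.19.

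The other S100 members stayed near equality. S100a10, the annexin A2 partner, had an intensity of 3218 in CD8+CD122+ and 2928 in CD8+CD122- on array 1, and of 2499 and 2854 on array 2. The populations changed order between the arrays, with log2 ratios of 0.14 and -0.19 and a mean of -0.03 ± 0.23 (SD, n = 2; limma adjusted p = 0.977). The population in Cy5 was the higher each time, and dye and array cannot be told apart. With median centring the S100a10 ratios were 0.62 and -0.64. S100a11, the annexin A1 partner, behaved alike, with intensities of 248 and 209 on array 1, 272 and 310 on array 2, and a mean log2 ratio of 0.03 ± 0.30 (limma adjusted p = 0.980). Its ratios with median centring were 0.46 and -0.47. S100a13 takes part in the export of proteins that lack a signal peptide, such as FGF1 and interleukin-1 alpha. Its intensity was 560 in CD8+CD122+ and 467 in CD8+CD122- on array 1, and 507 and 415 on array 2. The mean log2 ratio was 0.27 ± 0.02 (SD, n = 2), or 1.21-fold (limma adjusted p = 0.721), but with median centring in place of loess its value on array 2 turned to -0.05 while that on array 1 was 0.56.

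**Figure D2:**
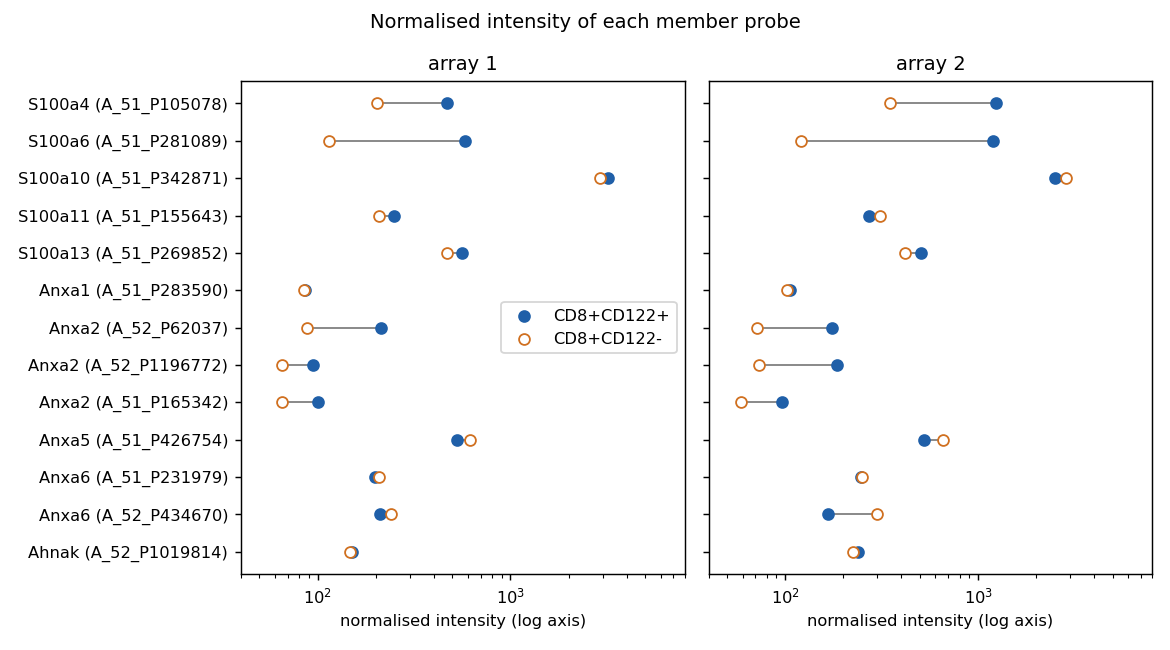
Normalised intensity (x axis, log scale) of the 13 member probes (y axis) in CD8+CD122+ (filled) and CD8+CD122- (open) on array 1 (left) and array 2 (right), joined by a line for each probe. The S100a6 pair is the widest on both arrays, and the S100a10 points nearly coincide and change order between arrays.

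The S100 members all lie on chromosome 3, and by RefSeq's gene order S100a4, S100a5 and S100a6 follow one another, while S100a10 and S100a11 are neighbours. S100a5, which lies between S100a4 and S100a6, had log2 ratios of 0.05 and 0.15, with a mean of 0.10. The S100a5 intensity was 95.7 in CD8+CD122+ and 92.2 in CD8+CD122- on array 1, and 105 and 94.9 on array 2. These dim signals hold the background offset, which draws the populations together. They cannot decide whether S100a5 shared the 2-fold differences of S100a4 and S100a6. The brighter probes of S100a10 and S100a11 did not show such a difference. A common cause for neighbouring genes was not tested. Of the 12 other S100 genes listed, 10 were on the array and 8 were tested, and 0 passed the 2-fold rule in either direction. By the brightest probe of each gene, their median log2 ratio was 0.02 and ranged from -0.40 for S100a16 to 0.10 for S100a5. The S100a16 probe at -0.40 was named Rai1 on array 1. The other S100a16 probe was at 0.04, with opposite signs on the arrays. S100a8, the neutrophil and monocyte alarmin subunit, was not well above background in any population, and its partner S100a9 was above it only in CD8+CD122+ on array 1.

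Among the annexins, Anxa2 had the highest ratios. Its product organises cholesterol-rich membrane and, with S100A10, binds plasminogen and tissue plasminogen activator at the cell surface. Probe A_52_P62037 had an intensity of 212 in CD8+CD122+ and 88.2 in CD8+CD122- on array 1, and of 174 and 71.1 on array 2. CD8+CD122+ was higher on each array, and the log2 ratios of 1.27 and 1.29 were nearly equal, with a mean of 1.28 ± 0.02 (SD, n = 2), or 2.43-fold (limma SE 0.06, adjusted p = 0.308). Of all probes tested, 90 had a higher mean ratio.

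Both other Anxa2 probes pointed the same way with smaller ratios and dimmer signals. Probe A_52_P1196772, which lay 35147 bases before A_52_P62037 on chromosome 9, had intensities of 95.0 and 65.4 on array 1 and of 184 and 73.0 on array 2 (CD8+CD122+ first). Its log2 ratios of 0.54 and 1.34 gave a mean of 0.94 ± 0.57 (SD, n = 2), or 1.92-fold (limma adjusted p = 0.771), and CD8+CD122- was not well above background on array 1. Probe A_51_P165342, between them, had intensities of 101 and 65.6 on array 1 and of 96.1 and 59.1 on array 2. CD8+CD122- was not well above background there on either array. The measured log2 ratio was 0.66 ± 0.06 (SD, n = 2, limma adjusted p = 0.491). With CD8+CD122- floored at the lowest signal well above background, CD8+CD122+ was 1.57-fold higher. That is no firm minimum, since the mean was 1.42-fold without background correction.

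The remaining annexins did not reach 2-fold on either array after loess. Anxa1, whose product binds formyl peptide receptors and limits inflammation, had intensities of 85.6 and 85.3 on array 1 and of 105 and 102 on array 2 (CD8+CD122+ first). The populations were nearly equal on each array, and the mean log2 ratio was 0.03 ± 0.03 (SD, n = 2; limma adjusted p = 0.958). Anxa5, the phosphatidylserine-binding protein used to stain dying cells, had intensities of 527 and 615 on array 1 and of 521 and 655 on array 2. CD8+CD122- was higher on both arrays, by a mean log2 ratio of -0.28 ± 0.07 (SD, n = 2), or 1.21-fold (limma adjusted p = 0.752), though with median centring the ratio was 0.09 on array 1 and -0.70 on array 2.

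Anxa6, an annexin with a duplicated core that acts in endosome traffic and membrane repair, was read by 2 probes 6119 bases apart on chromosome 11, and they differed in size. Probe A_51_P231979 had log2 ratios of -0.06 and -0.02, a mean of -0.04 ± 0.03 (SD, n = 2; limma adjusted p = 0.938). Probe A_52_P434670 had intensities of 210 in CD8+CD122+ and 241 in CD8+CD122- on array 1, and of 166 and 298 on array 2. CD8+CD122- was higher on both arrays, mainly on array 2, with log2 ratios of -0.20 and -0.85 and a mean of -0.52 ± 0.46 (SD, n = 2; limma adjusted p = 0.841). With median centring both Anxa6 probes turned above 0 on array 1, to 0.14 and 0.02, and were -0.28 and -1.08 on array 2.

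AHNAK is a scaffold that lies under the plasma membrane with annexin A2 and S100A10 and takes part in calcium entry through voltage-gated type channels in T cells. The only probe named Ahnak in a file, A_52_P1019814, comes from a clone that the file describes as unclassifiable. Its intensity was 151 in CD8+CD122+ and 148 in CD8+CD122- on array 1, and 239 and 225 on array 2. The populations were nearly equal, with a mean log2 ratio of 0.06 ± 0.04 (SD, n = 2; limma adjusted p = 0.931).

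That probe did not stand for the gene's other probes. After the files had been seen, 6 further probes were assigned to Ahnak by accession (4 probes) or by description (2 probes), and all lie in 1 direction on chromosome 19 with the named one. The 2 assigned by description, A_52_P382325 and A_52_P496566, were named 2310047C17Rik on array 2. Probe A_52_P263095 had an intensity of 2128 in CD8+CD122+ and 449 in CD8+CD122- on array 1, and of 5272 and 873 on array 2. CD8+CD122+ was far higher on both arrays, with log2 ratios of 2.24 and 2.59 and a mean of 2.42 ± 0.25 (SD, n = 2), or 5.35-fold (limma adjusted p = 0.308). Probe A_51_P224534 had intensities of 368 and 118 on array 1 and of 376 and 120 on array 2, and its log2 ratios of 1.64 and 1.65 made 3.13-fold (limma adjusted p = 0.264). Probe A_51_P365344 was just short of the rule of size, with 0.98 and 1.59 and a mean of 1.29 ± 0.43 (SD, n = 2). It passed that rule with an offset of 16 (1.22 and 1.93), with the deposited processed signals (1.45 and 2.18) and with median centring (1.17 and 1.37). The mean log2 ratio was 0.56 for A_52_P382325, 0.46 for A_52_P496566 and 0.13 for A_51_P278675, each above 0 on both arrays; the last was below 0 on array 2 with median centring (-0.15) and with the processed signals (-0.02).

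Ordered by distance from the first Ahnak probe, those with the highest ratios lay together, 22138, 29122 and 29691 bases from it. The probe named Ahnak lay 53700 bases from it and the last probe 87328 bases. The first and last probes were those assigned by description, with the name 2310047C17Rik on array 2. Whether each lies in an exon was not determined, since the sources used here name no genome build for the file coordinates. With these and the S100a4 probe added, 5 of the 20 probes passed the 2-fold rule upward, beside 0.253% of all probes tested. The added probes that passed were all of Ahnak, and probes of 1 gene are no replicates.

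**Figure D3:**
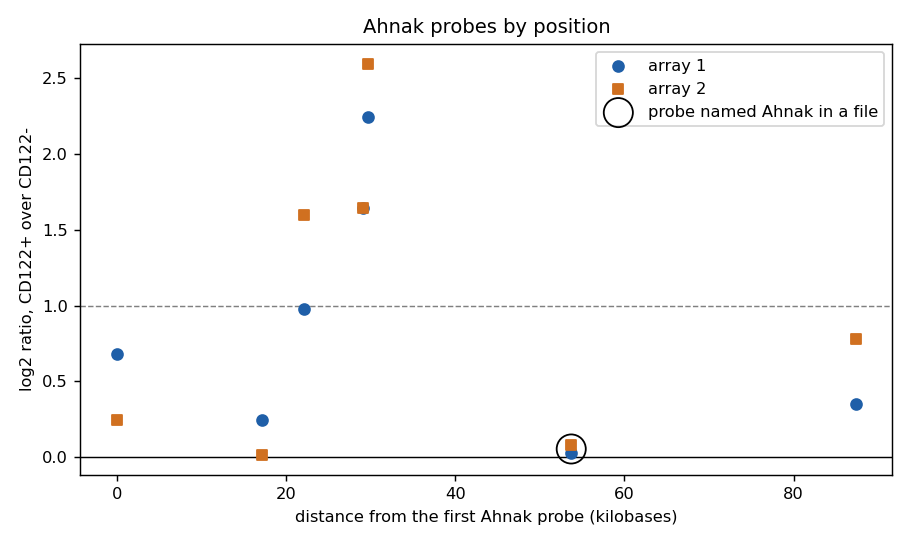
Log2 ratio of CD8+CD122+ over CD8+CD122- (y axis) of 7 Ahnak probes by distance from the first one in kilobases (x axis), on array 1 (circles) and array 2 (squares), with a dashed line at 2-fold. The 3 probes between 22138 and 29691 bases have mean ratios of 1.29, 1.65 and 2.42, while the circled probe named Ahnak lies near 0. The first and last probes were named 2310047C17Rik on array 2 and were assigned by description.

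The protein partners did not share one ratio. In the S100A10, annexin A2 and AHNAK complex, the mean log2 ratio was -0.03 for S100a10, between 0.66 and 1.28 for the Anxa2 probes, and between 0.06 and 2.42 for the Ahnak probes. In the S100A11 and annexin A1 pair, both means were 0.03, but that of S100a11 came from 0.25 and -0.19, and the Anxa1 probe was dim. The differences between partners were not tested.

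**Figure D4:**
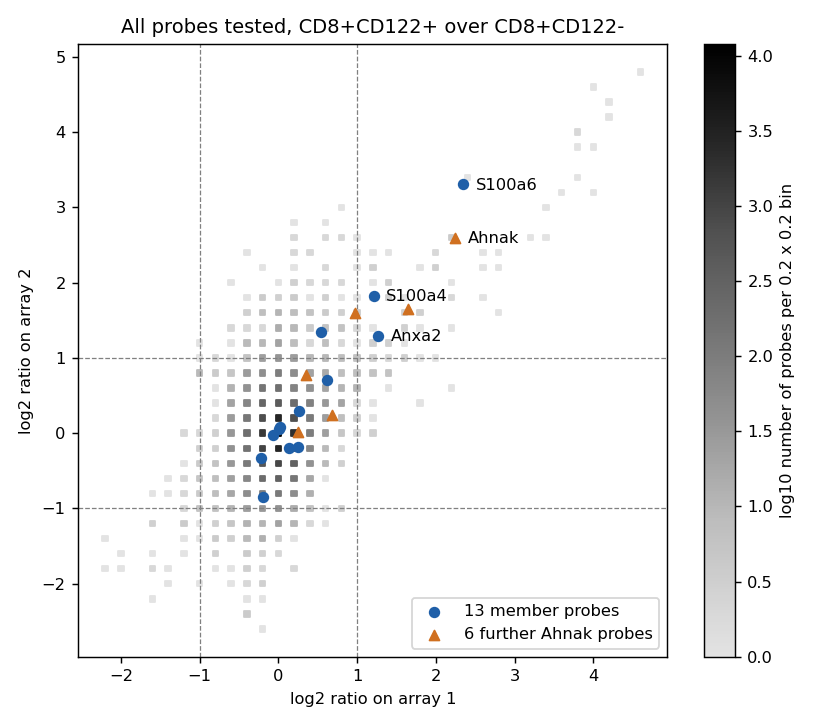
Log2 ratio on array 1 (x axis) against array 2 (y axis) for all 30794 probes tested (grey, number per bin on a log10 scale), with the 13 member probes as circles and 6 further Ahnak probes as triangles, and dashed lines at 2-fold. S100a6, S100a4 and 1 Anxa2 probe lie in the upper right corner, which held 78 of all the probes tested.

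The measured ratios of the relatives and binding partners of these proteins stayed within 2-fold, judged by the brightest probe of each gene. In none of the lists below did a gene pass the 2-fold rule or limma's adjusted threshold, where 0% of all probes passed the latter. Many of these probes were dim, such as those of Tlr4 (81.7 and 78.7 on array 1, CD8+CD122+ first) and Cacna1f (77.0 and 75.3). Such signals hold the background offset, which draws the populations together. They cannot decide whether those genes differed. The list of other annexin and AHNAK family genes, 8 annexins and Prx (periaxin) among the 9 tested, had a median log2 ratio of 0.04. It ranged from -0.17 for Anxa7 to 0.23 for Anxa13, and both of these changed sign between arrays. That Anxa13 probe was named Pole3 on array 1, and a dimmer Anxa13 probe was at 0.03. The 6 genes tested of the plasminogen system, which the annexin A2 complex activates, had a median of 0.03. Its lowest was Plaur, the urokinase receptor, with log2 ratios of -0.96 and -0.23 and a mean of -0.59, and its highest was Plat, tissue plasminogen activator, at 0.17. The dimmer Plaur probe was at -0.18.

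Receptors for S100 proteins and annexin A1 (3 tested) had a median of -0.02, from -0.04 for Fpr2 to 0.04 for Tlr4. These receptor probes were dim, so the limit above holds for them. Calpain and membrane repair genes (5 tested) had a median of 0.03, from 0.00 for Otof to 0.20 for Capn2, a calpain subunit. Among 7 other EF-hand genes of the penta-EF-hand and calmodulin groups, the median was 0.09. The lowest was Pef1 at -0.11 and the highest was Calm2, which encodes calmodulin, at 0.67, with 0.50 and 0.83 on the arrays. Among 8 cytoskeletal and other S100-binding genes, the median was -0.09. The lowest was Sugt1 at -0.24 and the highest was Vim, which encodes vimentin, at 0.79, with 0.69 and 0.88. The dimmer Sugt1 probe was at -0.39. Lmna was at 0.42 by its brightest probe, and its dimmer probes exceeded 2-fold on array 2 only. Lmna probe A_52_P137765 had log2 ratios of 0.30 and 1.43, and A_51_P313561 had 0.27 and 1.01. For the latter, CD8+CD122- was not well above background on array 1. Among 10 genes tested of channels that AHNAK or S100A10 binds, 9 of them calcium channel genes and 1 the potassium channel gene Kcnk3, the median was 0.01, from -0.22 for Cacnb3 to 0.05 for Cacna1f.

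Because S100 proteins and annexins are abundant in myeloid cells, markers of other cells were read beside them. Of 13 genes of monocytes, macrophages and neutrophils, 9 were tested and 0 passed the 2-fold rule, with a median log2 ratio of 0.02 and a range from -0.03 to 0.55. Their summed intensity was 1152 in CD8+CD122+ and 1045 in CD8+CD122- on array 1, and 1549 and 1440 on array 2. This sum and those below hold the offset of 50 for every gene, which draws the populations together. The highest ratio was that of Lyz2, a lysozyme of macrophages and neutrophils, with log2 ratios of 0.77 and 0.33. Its intensity was 193 and 113 on array 1 and 368 and 293 on array 2 (CD8+CD122+ first). The 3 tested genes of 5 natural killer cell markers had a median of 0.05 and summed intensities of 723 and 692 on array 1 and 803 and 777 on array 2; Ncr1 was not well above background. The 6 B cell genes had a median of 0.04, from -0.48 for Cd79b to 0.17. The 4 dendritic cell genes tested of 5 had a median of 0.03 and a range from 0.02 to 0.05 by their brightest probes, with summed intensities of 659 in CD8+CD122+ and 656 in CD8+CD122- on array 1 and of 946 and 911 on array 2. The dimmer probe of Itgax, the integrin chain CD11c, stood apart from these, at 0.61 and 1.07 with a mean of 0.84, while its brighter probe A_52_P424887 was at 0.03. The 3 platelet and erythroid genes tested of 6 were above 0 on both arrays, with a median of 0.12 and a highest value of 0.13 for Alas2; their summed intensity was 1249 in CD8+CD122+ against 1169 in CD8+CD122- on array 1, and 3081 against 2792 on array 2. Pf4, Itga2b and Hbb-b1 were not tested. Both CD4 T cell genes tested of 3, Cd4 and Foxp3, changed sign between arrays, with means of -0.02 and 0.03. Of the sorted surface markers, Cd8a and Cd8b1 had mean log2 ratios of -0.61 and -0.67. The part of other cells in the S100 and annexin ratios was not tested.

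The Anxa2 ratios were larger in another treatment of the signals. With the deposited processed signals, which the scanner software background-subtracts and dye-normalises, the mean log2 ratio of Anxa2 probe A_52_P62037 was 2.43, or 5.37-fold, and with a background offset of 16 it was 1.82. Both other Anxa2 probes also passed the 2-fold rule with these signals, but their folds have no firm size, since CD8+CD122- was not well above background on array 1 or on both. S100a6 moved from 2.83 to 3.62 ± 0.52 (SD, n = 2), or 12.3-fold, and S100a4 from 1.52 to 1.75. Of the Ahnak probes, A_51_P224534 moved from 1.65 to 2.30, or 4.91-fold, A_51_P365344 from 1.29 to 1.82, and A_52_P382325 from 0.56 to 1.16, or 2.24-fold. The brighter probe A_52_P263095 was 2.42 and 2.54, and the probe named Ahnak was 0.06 with both.

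**Figure D5:**
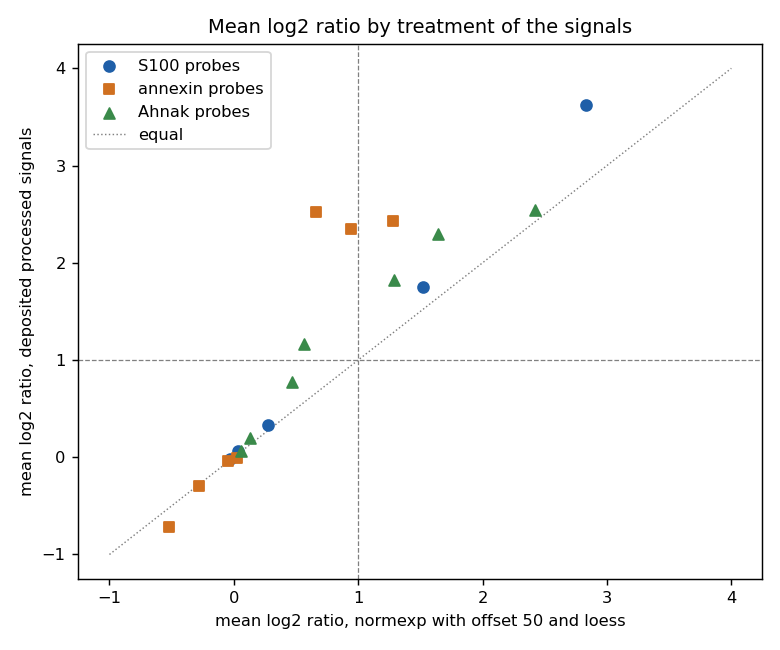
Mean log2 ratio over both arrays after background correction with an offset of 50 and loess (x axis) against the deposited processed signals (y axis) for S100 (circles), annexin (squares) and Ahnak (triangles) probes, with dashed lines at 2-fold and a dotted line of equality. The 3 Anxa2 squares lie farthest above the line; for 2 of them CD8+CD122- was not well above background on 1 or both arrays, so their height has no firm size.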

How the data were processed

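Polyadenylated RNA of sorted cells was amplified and hybridised to 2 dye-swapped Agilent arrays, per the labels. The deposited scanner files hold mean spot and median background intensity per channel, the processed signal intensity and the log10 of the Cy5 to Cy3 ratio, made with Feature Extraction A.7.5.1 (array 1) and 8.1.1.1 (array 2), per the file headers. The deposited value table equalled the scanner log10 ratio in 100% of its entries, with the sign turned on array 1; its other scale and centring steps are the scanner's.

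Here limma 3.58.1 in R 4.3.3 applied normexp background correction (offset 50) and loess (span 0.3, control spots at weight 0). Ratios were turned to CD8+CD122+ over CD8+CD122-, using the dyes in the labels. The outlier-marked spot of each array (1 each) was dropped but saturated spots were not, and repeated spots were averaged per probe. Probes well above background in the same population on both arrays were tested with lmFit and eBayes (two-sided, Benjamini-Hochberg over 30794 probes). The rule of size asked for a 2-fold difference or more, one way on both arrays. The floored fold sets the bright group's mean against the dim group's. On each array it takes the higher of the dim signal and the lowest signal well above background. It is no minimum for other treatments of the signals and is open to dye bias.

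Names followed the files and, for list genes, a RefSeq table (GRCm38.p6), which matched 21848 probes by accession, 5774 by symbol and 4382 by synonym, while 9170 kept the file's name; both files gave the same name for 36.4% of probes. Every member is named with all its probes; of each list, the highest and lowest gene by brightest probe. The members and lists were chosen with earlier results of these data known. The scripts were tested on simulated data. Protein sequences were not used here. Alternatives were the background correction, offset, deposited signals and value table, median centring, dim-probe filters, outlier spots, 1 probe per gene, variance model and leaving out each array; 7 further probes were added after seeing the data.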

Additional observations from a re-analysis of the deposited data

How the results depend on the processing

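The S100a6, Anxa2 and rule-chosen S100a4 probes kept their direction under every alternative run. Of the alternatives, 5 could move a member's value and keep both arrays: no background correction, the offset of 16, the processed signals, the value table (which holds the same ratios as these) and median centring. Of their 65 values for the 13 member probes, 45 moved by less than the spread between arrays, 17 moved further and 3 changed sign. S100a11 was -0.000984 with median centring, and Anxa1 -0.00326 with the deposited processed signals and the value table. Left with 1 array, S100a10 ranged from -0.19 to 0.14, S100a11 from -0.19 to 0.25 and the further S100a4 probe from -0.20 to 0.19. With an offset of 16, 120 probes of the array passed the 2-fold rule upward (78 before) and 42 downward (25 before), and limma called 6 probes, all higher and none a member; the processed signals and the value table gave 199 and 85, with 5 member probes higher in place of 3, of which 2 had a CD8+CD122- signal not well above background. Median centring left 16 probes lower, and 0 members below 0 on both arrays in place of 3. Counting 1 probe per gene, the brightest, left 5 members above 0 on both arrays in place of 8. Ahnak was not in this count, because its brightest probe, A_52_P263095, lies outside the rule. That probe was above 0 on both arrays (2.24 and 2.59). Asking for both populations well above background left 6. The 7 further probes raised the 8 to 14, with 5 past the 2-fold rule, beside 27.8% and 0.253% of all probes. Both gains came from probes of Ahnak alone. With 1 array alone, which gives no test, 109 to 336 probes passed upward, 42 to 219 downward and 3 to 4 members upward, and 3 to 5 members were below 0. Fewer arrays make the rule easier to pass; the cause of the other changes was not tested. No paired analysis was possible because the arrays form 1 group and each already holds both populations. Dim signal limits the Anxa1 and Anxa2 probes most.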
